A study of Mus musculus with 6 samples.

Results

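Cathepsins and other genes of the lysosome were followed in tendon cells of the mouse Achilles tendon that had been kept in medium conditioned by sensory ganglia (CM) or in control medium. The set is a list of 31 gene symbols, and all 31 were found among the 24413 genes of the deposited expression table. RNA-seq of polyadenylated RNA was done on 6 libraries, 3 per medium. Cells of the CM group were kept for 24 h in medium collected from cultures of dissociated lumbar dorsal root ganglia of 3 male C57BL/6J mice aged 12 weeks. The ganglion cultures had grown for 4 to 5 days with 5-fluoro-2-deoxyuridine and uridine at 20 µM each to stop dividing cells, were then changed to medium with 1% FBS, and the harvested medium was filtered at 0.22 µm and frozen before use. Cells of the control group were kept for 24 h in 1% FBS. Both groups came from tendons of 3 male Tppp3ECE/+;R26RtdT-CreERT2;Scx-GFP mice aged 12 weeks and were sorted with gates on tdT and GFP fluorescence. In these mice a tamoxifen-dependent Cre made by Tppp3-expressing cells switches on a red reporter, so tdT marks cells of the Tppp3 lineage and a green reporter marks cells that use the Scx promoter. No label says which animal a library came from. The p-values therefore reflect the variation among these 6 libraries, and some of that variation may be technical.

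Lysosomes are acidic compartments in which proteins, sugar chains and lipids from the cell surface, the matrix and autophagosomes are broken down. Soluble lysosomal enzymes are made as precursors, tagged with mannose 6-phosphate and delivered by receptors, and the cathepsins among them mature by cleavage. In connective tissue some of these proteases also act outside the cell: cathepsin K cleaves the triple helix of fibrillar collagen and is best known from the bone-resorbing osteoclast. The transcription factor TFEB binds E-box elements in the promoters of many lysosomal genes and enters the nucleus when the kinase mTORC1 is inactive.

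The 6 libraries held 18599170 to 25825027 fragments in genes. Between libraries, Pearson's r over genes on the log2 scale was 0.989 to 0.992 inside a group and 0.984 to 0.988 across groups; genes are not independent replicates. Of 12 tendon cell markers 11 were tested and 7 were lower in CM (Tnmd, Col1a1, Col1a2, Thbs4, Fmod, Dcn and Egr1), against 2.49% of all genes tested. For 3 of the 11 the log2 fold change was above 0, at most 0.17. Of the 11, 0 passed as higher and 1 was higher at an unadjusted p below 0.05. The summed level of the list was 3680 to 3778 FPKM in CM and 4639 to 4764 FPKM in control. Col1a1, a chain of type I collagen, averaged 2662 ± 38.3 FPKM in CM and 3337 ± 35.8 FPKM in control (SD, n = 3 each, limma adjusted p = 3.1e-04). Tppp3 itself was low, with 1.12, 0.777 and 0.830 FPKM in CM and 0.932, 1.05 and 0.724 FPKM in control. Macrophages and osteoclasts are rich in lysosomal gene products, so their markers were read beside the 31 genes. Of 16 macrophage markers 11 were in the table and 9 of these averaged under 1 FPKM over the 6 libraries. Their summed level was 6.01 to 6.75 FPKM in CM and 7.27 to 8.13 FPKM in control, and Adgre1, C1qa and Cx3cr1 were listed at 0 in all CM libraries. Cd14, the highest of them, averaged 3.19 ± 0.409 FPKM in CM and 2.84 ± 0.136 FPKM in control and did not pass (limma adjusted p = 0.48). Lyz2, lysozyme, the other macrophage marker tested, had 2.13, 1.70 and 1.55 FPKM in CM and 3.21, 2.46 and 2.37 FPKM in control, every CM library being below every control library, and did not pass either (log2 fold change -0.40, limma adjusted p = 0.083). Of 10 osteoclast markers 8 were in the table, with a sum of 20.99 to 22.4 FPKM in CM and 22.1 to 23.1 FPKM in control. The highest of these, the integrin Itgb3, which other cells make too, was lower in CM at 11.2 ± 0.220 FPKM, against 12.9 ± 0.169 FPKM in control (limma adjusted p = 0.026). Endothelial markers summed to 4.43 to 4.87 FPKM in CM and 5.76 to 6.55 FPKM in control, glial markers to 2.20 to 3.48 FPKM in CM and 3.33 to 4.00 FPKM in control, and markers of sensory neurons to 17.6 to 18.5 FPKM in CM and 23.1 to 25.9 FPKM in control. Of 6 endothelial, 8 glial and 10 neuronal markers with values, 5, 7 and 9 averaged under 1 FPKM over the 6 libraries. Only 1 gene per list was tested, so these sums do not measure how much of each cell type was present. Tek and Tubb3, the endothelial and neuronal genes tested, passed as lower in CM, and the glial S100b did not pass. The part of these lists in the results was not tested. In bulk RNA, fewer cells of a type and less RNA per cell cannot be told apart.

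FPKM counts fragments per length of a gene, scaled to the size of the library, so levels can be set side by side between genes. Summed over the 31 genes, the level was 2573, 2562 and 2555 FPKM in CM replicates 1, 2 and 3, and 2352, 2351 and 2421 FPKM in control replicates 1, 2 and 3, so every CM library lay above every control library. As a share of the FPKM of all genes this was 0.941 ± 0.00538% in CM and 0.889 ± 0.00627% in control (SD, n = 3 each). The highest level was that of Psap, the precursor of the saposins that present sphingolipids to their hydrolases, at 523 ± 8.92 FPKM in CM and 461 ± 7.55 FPKM in control. Lamp1, a heavily glycosylated protein of the lysosomal membrane, and Ctsd, the aspartic protease cathepsin D, came next in both media, and Lamp1 was above Ctsd in each of the 6 libraries. Psap, Lamp1 and Ctsd made up 46.4 ± 0.188% of the summed level in CM and 45.9 ± 0.172% in control. At the lower end stood Neu1, Gla, Tfeb and Cd68, at 5.38 FPKM or less in all libraries, and Ctss.

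**Figure D1:**
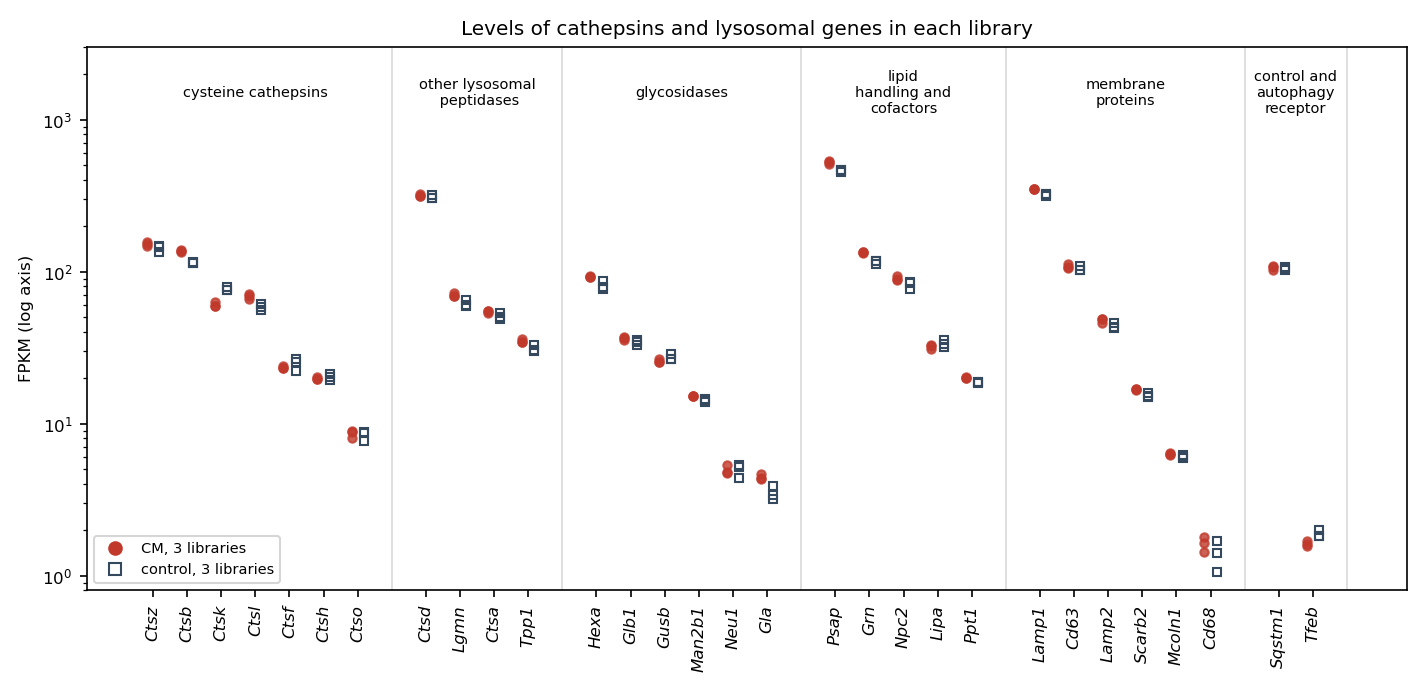
FPKM (log axis) of 30 genes in each library, arranged by role, with CM libraries as filled circles left of control libraries as open squares. Ctss, with 0 to 3 fragments per library, is left out. Levels run from Psap, at 453 FPKM or more in all libraries, to Cd68 and Tfeb, between 1.06 and 2.01 FPKM.

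Changes were tested with limma on log2(FPKM + 1) for 11678 genes whose mean reached 1 FPKM, and a gene passed at a Benjamini-Hochberg adjusted p below 0.05 over all of them. Of the 31 genes 30 were tested, and 6 were higher and 1 was lower in CM: Ctsb, Ctsl, Lgmn, Grn, Psap and Lamp1 rose and Ctsk fell. Among all genes tested 4.04% were higher and 2.49% lower in CM, and 6.53% passed in either direction. Of all genes that passed 61.9% were higher as reported, and 50.9% with values rescaled to TPM. The differences were small, the rises being between 9.16% and 19.5% of the control mean in FPKM. The median log2 fold change of the 30 genes was 0.094, against 0.0052 over all genes tested. It was above 0 for 24 of the 30, against 52.0% of all genes. With TPM rescaling these medians were 0.068 and -0.021, and with quantile normalization 0.058 and -0.011. In both of these settings 21 of the 30 were above 0. For 16 of the 30 every CM library lay above every control library, a pattern found in 14.3% of all genes tested, and for 2 every CM library lay below, found in 11.6%. Of the 23 genes that did not pass, 8 had a 95% interval of the log2 fold change, not corrected for multiple testing, that left out 0. At an unadjusted p below 0.05, 14 of the 30 were higher and 1 was lower. Of all 11678 genes tested 1308 were higher and 982 lower at that threshold.

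The number that rose depended on the libraries and the scaling. It was 1 without CM replicate 1, 2 without CM replicate 2, 3 without control replicate 2, 3 with quantile normalization, and 10 with limma voom on recovered whole fragments, by which 5.58% of all genes were higher. Ctsk was the 1 gene that fell in voom too, by which 4.05% of all genes were lower. Ctsb and Ctsk passed in all 14 alternative settings, while Grn, Psap, Ctsl, Lgmn and Lamp1 passed in 12 of 14, 9 of 14, 7 of 14, 3 of 14 and 2 of 14 settings.

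**Figure D2:**
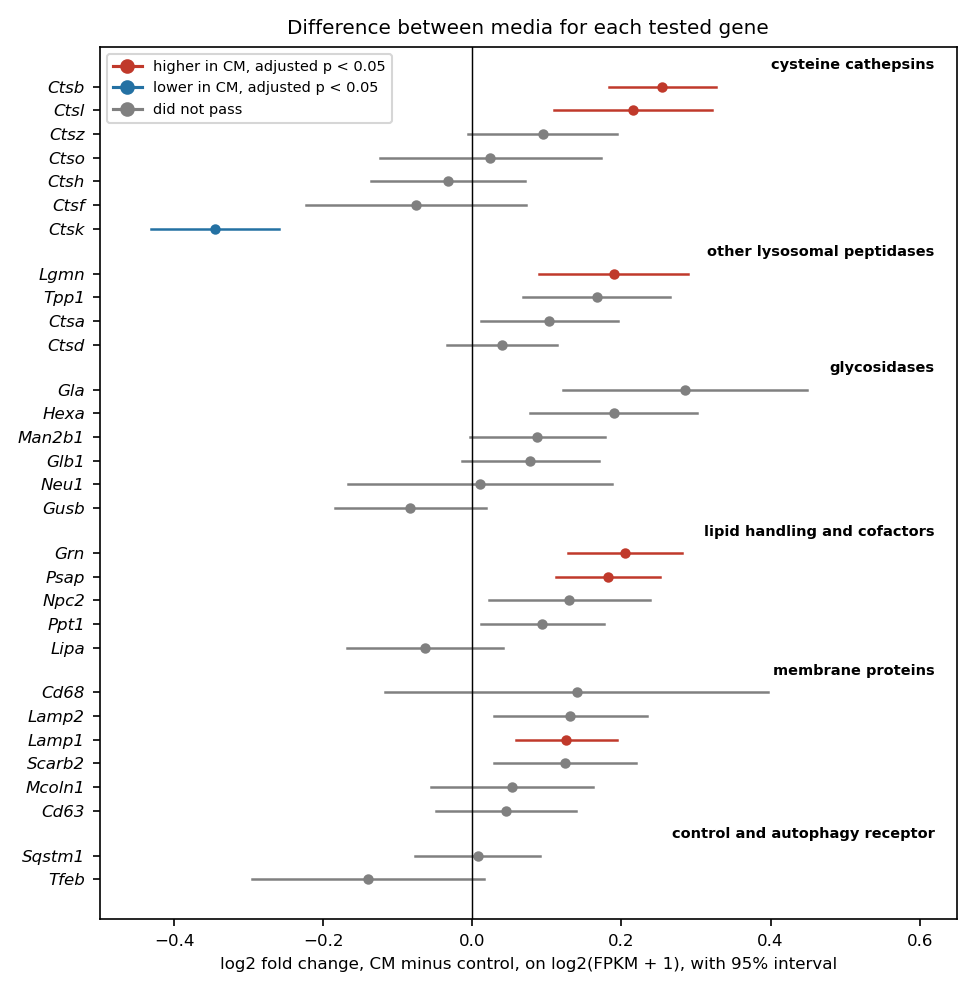
Log2 fold change (CM minus control, on log2(FPKM + 1)) of each of the 30 tested genes as a point with its 95% interval, grouped by role. Red marks the 6 genes that were higher, blue Ctsk, which was lower, and grey the 23 that did not pass; Gla has the highest point, 0.29, with an interval of 0.12 to 0.45.

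Among the cysteine cathepsins, papain-like proteases with a cysteine in the active site, Ctsb and Ctsl rose, Ctsk fell and Ctsz, Ctsf, Ctsh and Ctso did not pass. Ctsb, cathepsin B, which cuts both within chains and from their carboxyl end, had 139, 135 and 137 FPKM in CM, against 116, 113 and 114 FPKM in control. The lowest CM library stood above the highest control library by more than the range within either group. Its log2 fold change was 0.25 ± 0.031 SE (limma adjusted p = 0.0022), and it ran from 0.23 to 0.27 over the alternatives with a highest adjusted p of 0.03. Ctsb lies on chromosome 14 from 63122462 to 63145923 (mm10), and its exons share 774 of 6051 exonic bases with Fdft1, an enzyme of sterol synthesis on the opposite strand. Whether the authors counted by strand is not given, so fragments there could be from either gene. Fdft1 averaged 26.2 ± 0.355 FPKM in CM and 24.5 ± 1.13 FPKM in control and did not pass (log2 fold change 0.094, limma adjusted p = 0.28).

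Ctsk, cathepsin K, the collagen-cleaving member, had 59.1, 62.7 and 59.8 FPKM in CM, against 76.2, 76.1 and 79.2 FPKM in control. All CM libraries lay below all control libraries, and the mean fell by 21.5% relative to control. The log2 fold change was -0.35 ± 0.037 SE (limma adjusted p = 0.0011) and ran from -0.40 to -0.33 in the alternatives. Of the 30 genes it had the largest absolute change on log2(FPKM + 1), while as a percent of the control mean the difference of Gla was larger, at 27.8%. Of 8 osteoclast markers with values 3 were tested, and 1, Itgb3, was lower and 0 higher, against 2.49% lower among all genes. For 2 of the 3 the log2 fold change was above 0, at most 0.18, and neither passed. The other 5 averaged under 1 FPKM over the 6 libraries, among them Ocstamp, Mmp9, Tnfrsf11a and Oscar, each under 1 FPKM in both media. The part of the marker Itgb3 and of the lower tendon cell markers in the fall of Ctsk was not tested. Acp5, the tartrate-resistant acid phosphatase that osteoclasts make with Ctsk, averaged 2.21 ± 0.120 FPKM in CM and 1.90 ± 0.782 FPKM in control and did not pass (limma adjusted p = 0.68).

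Ctsl, cathepsin L, an endopeptidase, had 70.9, 68.9 and 65.6 FPKM in CM, against 56.2, 58.8 and 61.6 FPKM in control. The groups did not overlap, though CM replicate 3 and control replicate 3 were only a few FPKM apart. The log2 fold change was 0.22 ± 0.046 SE (limma adjusted p = 0.031), and the gene did not pass without CM replicate 1, CM replicate 2, control replicate 1 or control replicate 2 (highest adjusted p over all alternatives 0.14). An antisense gene, Gm47123, covers 26.8% of the exonic bases of Ctsl and was not analysed here, so fragments of that strand may be included. A processed pseudogene on the same strand, Gm49230, shares 395 of the 6489 exonic bases and was not analysed either. Ctsl lies on chromosome 13 from 64359337 to 64370890.

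Ctsz, cathepsin Z, a carboxypeptidase, was the most abundant cysteine cathepsin, with 156, 153 and 148 FPKM in CM and 135, 144 and 148 FPKM in control. The groups overlapped and it did not pass (log2 fold change 0.094, 95% interval -0.0063 to 0.19, limma adjusted p = 0.28). Ctsf had 23.9, 23.2 and 23.1 FPKM in CM and 22.2, 26.5 and 25.6 FPKM in control, where replicate 1 was below the other two. Ctsh, an aminopeptidase, had 19.7, 20.2 and 19.5 FPKM in CM and 19.3, 20.3 and 21.2 FPKM in control. Ctso, a little-studied member of the family, had 8.78, 8.92 and 8.03 FPKM in CM and 8.72, 7.72 and 8.84 FPKM in control. Values of these 3 overlapped between media, with 95% intervals of the log2 fold change of -0.22 to 0.072, -0.14 to 0.071 and -0.12 to 0.17, and limma adjusted p = 0.58, 0.76 and 0.89 in the order Ctsf, Ctsh, Ctso.

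Ctss, cathepsin S, which trims the invariant chain in antigen-presenting cells and is known to be induced by interferon, was barely detected, in 3 of the 6 libraries, and was too low to be tested. It had 0, 2 and 0 fragments in CM replicates 1, 2 and 3 and 3, 0 and 3 fragments in control replicates 1, 2 and 3, none above the floor of 3 fragments per library, so no fold is given. Ctss lies beside Ctsk, on chromosome 3 from 95526786 to 95556403, with Ctsk on chromosome 3 from 95499256 to 95509362, so these neighbours differed widely in level in the same libraries.

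**Figure D3:**
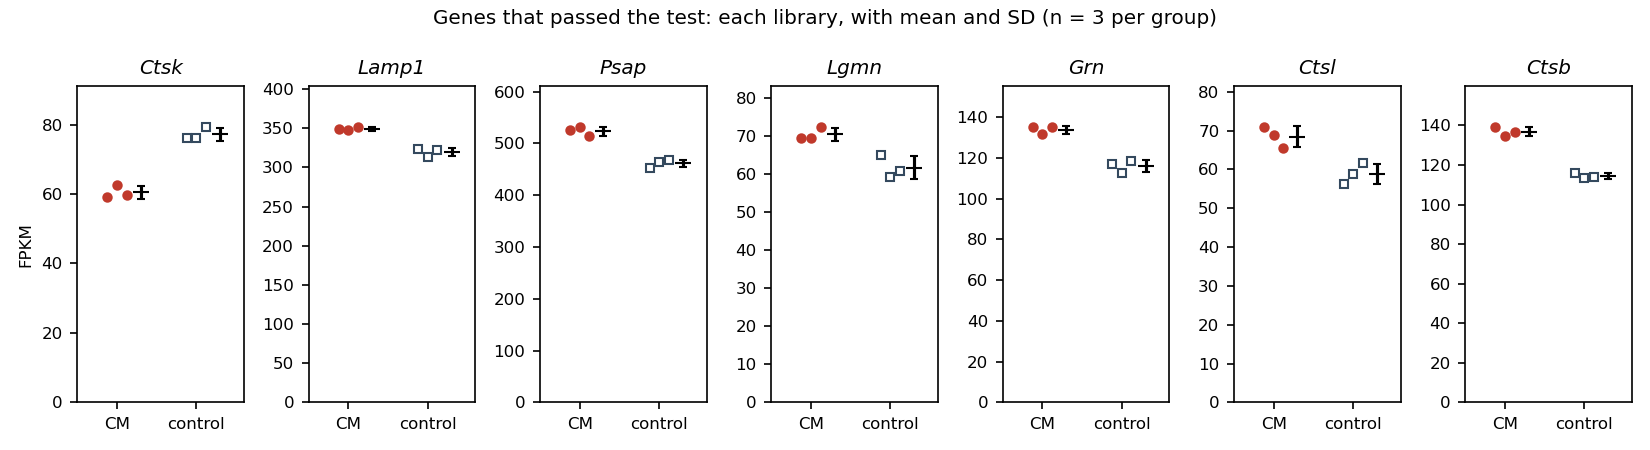
FPKM (axes from 0) of the 7 genes that passed, ordered from the fall of Ctsk to the rise of Ctsb, with CM libraries left of control libraries and the mean and SD (n = 3 each) beside the points. In all 7 panels the CM and control libraries do not overlap, and the gap is widest for Ctsk relative to the control mean.

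Ctsk fell while Ctsb and Ctsl rose, and the make-up of the cysteine cathepsin pool differed between media. The sum over the 8 genes was 477, 471 and 461 FPKM in CM and 434, 447 and 459 FPKM in control, so that the lowest CM library was only just above the highest control library. Of this sum Ctsk took 12.4, 13.3 and 13.0% in CM libraries and 17.6, 17.0 and 17.3% in control libraries. Ctsb took 29.1, 28.6 and 29.7% in CM and 26.8, 25.4 and 24.8% in control. The level of Ctsb was 2.26 ± 0.102 times that of Ctsk in CM and 1.48 ± 0.0430 times in control (SD, n = 3 each). These ratios are taken within a library and are the same under any scaling by 1 factor per library; they were formed after the changes of both genes had been seen and are given without a test.

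**Figure D4:**
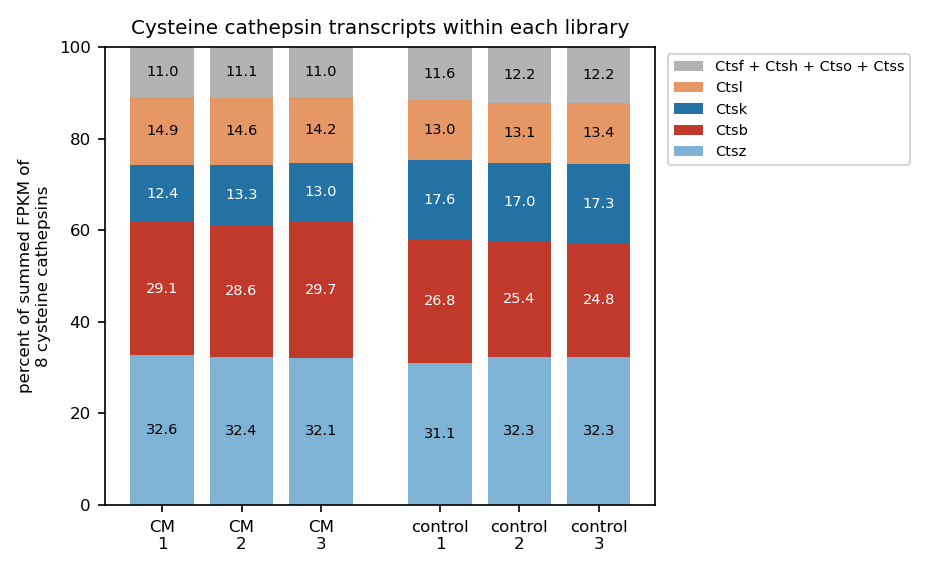
Percent of the summed FPKM of 8 cysteine cathepsins in each library, stacked from 0 to 100, with the 3 CM libraries left of the 3 control libraries. Ctsk holds 12.4 to 13.3% in CM and 17.0 to 17.6% in control, while Ctsz holds 31.1 to 32.6% across all libraries.

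Ctsk, Ctsl and Grn were among the 4 genes of largest absolute change that passed, and the other, Ctsb, had no promoter window. Lamp1, which passed in 2 of 14 settings, was added after its letters had been seen because it carries the most E-box cores. The promoter windows of Ctsk, Ctsl, Grn and Lamp1 are printed so that the letters can be read beside the direction of change. Each runs from 250 bases before to 50 after a RefSeq transcript start (GRCm38), 5′ to 3′ on the strand of the gene, at chr3:95498960-95499259 (plus strand), chr13:64370471-64370770 (minus), chr11:102430257-102430556 (plus) and chr8:13158911-13159210 (plus). Capitals mark matches on either strand to CACGTG, the E-box core of the element bound by TFEB, or to TTTC, any 2 bases and TTTC, an interferon-stimulated response element. Matches to TGANNNNGC, a loose form of the core of the NRF2 element that takes any base at each N, would be marked too.
Ctsk: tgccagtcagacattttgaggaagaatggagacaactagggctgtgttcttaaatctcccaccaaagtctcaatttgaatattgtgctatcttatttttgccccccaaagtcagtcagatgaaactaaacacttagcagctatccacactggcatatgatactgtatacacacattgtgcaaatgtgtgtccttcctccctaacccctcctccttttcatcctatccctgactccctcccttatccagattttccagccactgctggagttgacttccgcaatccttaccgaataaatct
Ctsl: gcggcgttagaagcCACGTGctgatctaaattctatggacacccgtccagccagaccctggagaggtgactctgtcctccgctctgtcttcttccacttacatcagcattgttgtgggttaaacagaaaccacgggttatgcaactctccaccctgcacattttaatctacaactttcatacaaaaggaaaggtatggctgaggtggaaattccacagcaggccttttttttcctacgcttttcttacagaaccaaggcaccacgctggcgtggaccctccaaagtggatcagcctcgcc
Grn: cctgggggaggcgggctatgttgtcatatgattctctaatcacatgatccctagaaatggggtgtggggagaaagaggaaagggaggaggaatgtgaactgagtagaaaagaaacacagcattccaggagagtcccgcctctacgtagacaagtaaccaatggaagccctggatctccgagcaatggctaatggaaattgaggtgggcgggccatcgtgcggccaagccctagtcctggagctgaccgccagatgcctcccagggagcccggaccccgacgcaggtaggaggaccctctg
Lamp1: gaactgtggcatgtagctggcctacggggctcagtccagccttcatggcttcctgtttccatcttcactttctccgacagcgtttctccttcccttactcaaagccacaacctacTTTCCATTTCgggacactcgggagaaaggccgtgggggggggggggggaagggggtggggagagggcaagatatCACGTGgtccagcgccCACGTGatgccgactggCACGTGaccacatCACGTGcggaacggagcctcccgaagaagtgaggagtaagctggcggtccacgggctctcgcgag
The window of Ctsk, the gene that fell, and that of Grn hold no match to these letters, Ctsl holds 1 CACGTG, starting at offset -236 from the start site, and Lamp1 holds 4, at offsets -61, -45, -28 and -15. Of the 31 genes 29 had windows, 34 in all since some genes have several, and CACGTG was present in 9 of the 34, against 7.15% of all 32851 RefSeq windows of that length. The 9 windows belong to Ctsa, Ctsd, Ctsf, Ctsl, Gla, Glb1, Lamp1, Lgmn and Mcoln1, of which Ctsl, Lamp1 and Lgmn rose and the other 6 did not pass. CACGTG flanked by GT before and AC after it, the full element bound by TFEB, was in 0 of the 34 and in 0.326% of all windows. The interferon-stimulated response element was in 3 of the 34, those of Ctso, Ctss and Lamp1, against 3.44% of all windows, and that of Ctss begins at offset -21. The loose NRF2 pattern was in 17 of the 34, against 41.3% of all windows. A match is a run of letters and does not show binding.

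Of the other lysosomal peptidases Lgmn rose, 0 were lower and 3 did not pass in limma. At an unadjusted p below 0.05 3 were higher and 0 lower, and by voom 2, Lgmn and Tpp1, were higher and 0 lower. Among all genes tested 4.04% were higher and 2.49% lower in limma, and 5.58% and 4.05% by voom. At an unadjusted p below 0.05 1308 of all 11678 genes were higher and 982 lower. Lgmn, legumain, an asparaginyl endopeptidase that also cleaves cathepsin precursors, had 69.3, 69.4 and 72.2 FPKM in CM, against 64.99, 59.1 and 60.6 FPKM in control. The control libraries spread more than the CM libraries, and the groups did not overlap. The log2 fold change was 0.19 ± 0.043 SE (limma adjusted p = 0.041), near the threshold, and without control replicate 1, the highest control library, it was 0.23. Without any one of the other 5 libraries the gene did not pass, and the highest adjusted p over the alternatives was 0.24. Tpp1, tripeptidyl peptidase 1, had 34.5, 34.7 and 35.9 FPKM in CM and 32.7, 30.1 and 30.5 FPKM in control. Ctsa, cathepsin A, a serine carboxypeptidase that also protects beta-galactosidase and neuraminidase 1, had 55.1, 53.5 and 55.5 FPKM in CM and 50.4, 49.1 and 53.1 FPKM in control. Neither group pair overlapped, yet both genes missed the threshold (log2 fold change 0.17 and 0.10, limma adjusted p = 0.061 and 0.2). Ctsd, the aspartic protease that dominates this class, had 315, 315 and 323 FPKM in CM and 305, 305 and 318 FPKM in control, with control replicate 3 inside the CM range. Its 95% interval of -0.034 to 0.11 reaches at most a small rise (limma adjusted p = 0.56), and the value turned to -0.038 with quantile normalization. Exons of Gm49369 share 808 of 2351 exonic bases with Ctsd on the same strand, so its level is uncertain. The level of Ctsd was 2.32 ± 0.0514 times that of Ctsb in CM and 2.70 ± 0.0823 times in control.

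None of the 6 glycosidases, enzymes that remove sugars from glycolipids and glycoproteins, passed in limma, against 6.53% of all genes. At an unadjusted p below 0.05 2 were higher and 0 lower, against 1308 and 982 of all 11678 genes. By voom 2, Gla and Hexa, were higher, against 5.58% of all genes. Gla, alpha-galactosidase A, the enzyme lacking in Fabry disease, had 4.32, 4.38 and 4.64 FPKM in CM and 3.89, 3.37 and 3.17 FPKM in control. It had the highest log2 fold change of the 30 genes, 0.29 ± 0.071 SE, with a limma adjusted p of 0.056. Only 209 to 356 fragments per library lay behind it. Hexa, the alpha subunit of beta-hexosaminidase, had 93.1, 91.7 and 91.8 FPKM in CM and 78.7, 76.8 and 86.9 FPKM in control. Control replicate 3 stood well above the other control libraries, and without it the log2 fold change was 0.24 with a limma adjusted p of 0.0091, against 0.19 and 0.061 with all libraries. Over the alternatives the adjusted p of Hexa reached 0.19. Man2b1, lysosomal alpha-mannosidase, had 15.2, 15.3 and 15.1 FPKM in CM and 14.6, 14.3 and 13.9 FPKM in control, without overlap and by a small margin. Glb1, the acid beta-galactosidase, had 36.6, 35.7 and 36.9 FPKM in CM and 33.1, 34.6 and 35.7 FPKM in control, and the lowest CM library equalled the highest control library to within 0.1 FPKM. Neu1, the sialidase that works in a complex with Glb1 and Ctsa, had 5.38, 4.77 and 4.80 FPKM in CM and 5.32, 4.38 and 5.15 FPKM in control. Gusb, beta-glucuronidase, had 25.4, 26.6 and 25.3 FPKM in CM and 26.5, 26.8 and 28.7 FPKM in control and was the glycosidase with a negative log2 fold change, -0.083. The limma adjusted p of Man2b1, Glb1, Neu1 and Gusb was 0.27, 0.34, 0.96 and 0.35.

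Cofactors and lipid-handling proteins had 2 that rose, Grn and Psap, 0 lower and 3 that did not pass in limma. Among all genes 4.04% were higher and 2.49% lower. At an unadjusted p below 0.05 4 were higher and 0 lower, against 1308 and 982 of all 11678 genes. By voom 2, Grn and Psap, were higher and 0 lower, against 5.58% and 4.05% of all genes. Grn, progranulin, a secreted glycoprotein that is cut into granulins in the lysosome, had 135, 132 and 135 FPKM in CM, against 117, 113 and 118 FPKM in control. The CM libraries were closer to each other than to any control library. The log2 fold change was 0.20 ± 0.033 SE (limma adjusted p = 0.0093), and the gene did not pass without CM replicate 1 or with the replicate number as a block (highest adjusted p 0.059). Psap, which binds progranulin and travels with it, had 526, 531 and 514 FPKM in CM, against 453, 464 and 467 FPKM in control. Its log2 fold change was 0.18 ± 0.03 SE (limma adjusted p = 0.011), and the gene did not pass without CM replicate 1 or CM replicate 2, among other settings (highest adjusted p 0.17). Quantile normalization brought its value to 0.0945, the lowest of the alternatives. Behind Psap lay 25852 to 33391 fragments per library.

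Npc2, which passes cholesterol on to the membrane protein NPC1, had 92.9, 89.0 and 87.6 FPKM in CM and 77.0, 84.0 and 85.2 FPKM in control, where replicate 1 was the lowest. Ppt1, palmitoyl-protein thioesterase 1, had 20.3, 19.8 and 19.9 FPKM in CM and 18.6, 18.8 and 18.7 FPKM in control. Neither overlapped between media, and their log2 fold changes of 0.13 and 0.094 did not pass (limma adjusted p = 0.17 and 0.19). Exons of Ppt1 share 129 of 3674 exonic bases with Cap1 on the opposite strand, so fragments there could be from either gene. Cap1 averaged 118 ± 0.629 FPKM in CM and 113 ± 2.06 FPKM in control and did not pass (log2 fold change 0.064, limma adjusted p = 0.31). Lipa, the acid lipase that frees cholesterol from its esters, had 31.1, 32.4 and 32.7 FPKM in CM and 35.3, 33.4 and 32.0 FPKM in control. Its groups overlapped, and the 95% interval of the log2 fold change was -0.17 to 0.041 (limma adjusted p = 0.51).

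All 6 membrane proteins had a log2 fold change above 0, against 52.0% of all genes. In limma 1, Lamp1, was higher and 0 lower, against 4.04% and 2.49% of all genes. At an unadjusted p below 0.05 3 were higher and 0 lower, against 1308 and 982 of all 11678 genes. By voom 2, Lamp1 and Lamp2, were higher and 0 lower, against 5.58% and 4.05% of all genes. Lamp1 had 349, 347 and 351 FPKM in CM, against 323, 314 and 322 FPKM in control. The libraries of each medium lay close together and the groups did not overlap, and the mean was 9.16% higher in CM, with a log2 fold change of 0.13 ± 0.029 SE (limma adjusted p = 0.042). It passed in 2 of the 14 alternatives, and in none that left out a library or rescaled the libraries (highest adjusted p 0.39). Lamp2, a related membrane protein whose LAMP-2A form serves chaperone-mediated autophagy, had 45.8, 48.8 and 49.2 FPKM in CM and 45.7, 42.3 and 43.0 FPKM in control. CM replicate 1 was barely above control replicate 1, and the log2 fold change of 0.13, close to that of Lamp1, did not pass (limma adjusted p = 0.14). The level of Lamp1 was 7.29 ± 0.275 times that of Lamp2 in CM and 7.33 ± 0.219 times in control (SD, n = 3 each), ranges that overlapped.

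Scarb2, known as LIMP-2, the receptor that carries beta-glucocerebrosidase to lysosomes, had 16.8, 17.0 and 16.9 FPKM in CM and 15.0, 16.0 and 15.2 FPKM in control (limma adjusted p = 0.14). Mcoln1, a calcium channel of the lysosomal membrane, had 6.45, 6.35 and 6.19 FPKM in CM and 6.22, 6.06 and 5.93 FPKM in control (limma adjusted p = 0.6). Scarb2 did not overlap between media, whereas Mcoln1 did. Cd63, a tetraspanin of late endosomes and exosomes, had 108, 105 and 112 FPKM in CM and 103, 103 and 109 FPKM in control, with control replicate 3 inside the CM range (limma adjusted p = 0.6). Cd68, a membrane glycoprotein used as a macrophage marker, had 1.79, 1.65 and 1.42 FPKM in CM and 1.40, 1.70 and 1.06 FPKM in control, from 27 to 56 fragments per library. The 95% interval of the log2 fold change of Cd68, -0.12 to 0.40, was the widest of the 30 genes.

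Neither Tfeb nor Sqstm1 passed (0 of 2 in limma, against 6.53% of all genes, 0 at an unadjusted p below 0.05 and 0 by voom). Tfeb, the regulator of lysosomal genes named above, had 1.62, 1.70 and 1.56 FPKM in CM and 1.84, 1.84 and 2.01 FPKM in control. Every CM library lay below every control library, the other such gene being Ctsk, and the log2 fold change was -0.14 ± 0.067 SE (limma adjusted p = 0.3) from 181 to 273 fragments per library. On log2(FPKM + 1) the change of so low a gene is understated, and with a pseudocount of 0.1 it was -0.21. Sqstm1, p62, the autophagy receptor that is itself degraded in lysosomes and is a target of NRF2, had 108, 107 and 102 FPKM in CM and 106, 103 and 107 FPKM in control. The media overlapped, and the 95% interval of its log2 fold change was -0.077 to 0.091 (limma adjusted p = 0.94).

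Other genes of the pathway were counted from lists that share no gene with the 31. For counts at an unadjusted p below 0.05 the background is 1308 higher and 982 lower of all 11678 genes tested. Of 42 tested genes of other lysosomal hydrolases and related proteins 4 were higher and 0 lower in limma, with a median log2 fold change of 0.024. At an unadjusted p below 0.05 11 were higher and 0 lower, and by voom 5 were higher and 0 lower. The share that was higher was 9.52%, against 4.04% of all genes tested. Creg1, a secreted glycoprotein of the lysosome and not an enzyme of breakdown, averaged 14.3 ± 0.419 FPKM in CM and 11.2 ± 0.990 FPKM in control (limma adjusted p = 0.02). Gaa, the glycogen-degrading acid alpha-glucosidase, and Scpep1, a serine carboxypeptidase, had log2 fold changes of 0.17 and 0.16 (limma adjusted p = 0.041 and 0.044). The count of 4 fell to 0 without CM replicate 1, CM replicate 2 or control replicate 2, and to 1 or 2 without any other library.

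Of 37 tested genes of the lysosomal membrane and the proton pump 1 was higher and 1 lower (4 higher and 4 lower at an unadjusted p below 0.05), and 2.70% passed in each direction, against 4.04% higher and 2.49% lower among all genes. By voom 2 were higher and 2 lower, and the median log2 fold change was 1.1e-05. Tcirg1, the a3 subunit of the pump, averaged 18.9 ± 0.408 FPKM in CM and 15.3 ± 0.780 FPKM in control (limma adjusted p = 0.0095), and passed in 12 of 14 alternatives. Tpcn1, a cation channel of endosomes and lysosomes, averaged 5.39 ± 0.124 FPKM in CM and 6.605 ± 0.488 FPKM in control (limma adjusted p = 0.047), and passed in 5 of 14. Without any one library the count of 2 was 0 to 3, being 0 without CM replicate 2 and 1 without CM replicate 1, CM replicate 3, control replicate 1 or control replicate 2.

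Of 48 tested genes of lysosomal delivery and TFEB control 1 was higher and 0 lower in limma (4 higher and 1 lower at an unadjusted p below 0.05, 1 higher, which was not Rab9, and 0 lower by voom). The share that was higher was 2.08%, against 4.04% of all genes, of which 2.49% were lower. Rab9, a small GTPase that returns mannose 6-phosphate receptors to the Golgi, averaged 22.5 ± 0.216 FPKM in CM and 19.8 ± 0.843 FPKM in control (limma adjusted p = 0.048). It passed in 2 of 14 alternatives, did not pass in voom, and did not pass without any 1 of the 6 libraries other than control replicate 3. Lrp1, the endocytic receptor with the highest level on that list, averaged 257 ± 0.350 FPKM in CM and 263 ± 15.8 FPKM in control and did not pass (limma adjusted p = 0.77). Of 42 autophagy genes 0 passed in limma in either direction (2 higher and 6 lower at an unadjusted p below 0.05, 0 by voom), against 6.53% of all genes. Gabarap, a ubiquitin-like protein of the autophagosome membrane with the highest level on the list, averaged 156 ± 5.19 FPKM in CM and 162 ± 6.04 FPKM in control (limma adjusted p = 0.48).

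Inhibitors that could hold cathepsins in check had 1 higher, 1 lower and 6 not passing of 8 tested in limma, against 4.04% higher and 2.49% lower among all genes. At an unadjusted p below 0.05 4 were higher and 2 lower, and by voom 2 were higher and 1 lower. Fetub, fetuin-B, averaged 3.47 ± 0.543 FPKM in CM and 2.00 ± 0.0188 FPKM in control (limma adjusted p = 0.0079); it has cystatin domains, but its known target is a metalloprotease of the egg. Ctla2a, which resembles the propeptide of cathepsin L, averaged 3.22 ± 0.391 FPKM in CM and 4.57 ± 0.514 FPKM in control (limma adjusted p = 0.042), and its near-identical copy Ctla2b makes that value uncertain. Without CM replicate 2, CM replicate 3, control replicate 1 or control replicate 2 the count of 2 was 1, and without control replicate 3 it was 3. Cst3 and Cstb, cystatins that inhibit cysteine cathepsins, averaged 173 ± 7.22 and 84.4 ± 5.31 FPKM in CM and 167 ± 7.65 and 75.3 ± 4.04 FPKM in control. Neither passed (limma adjusted p = 0.64 and 0.15); Cstb was named after its values had been seen.

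**Figure D5:**
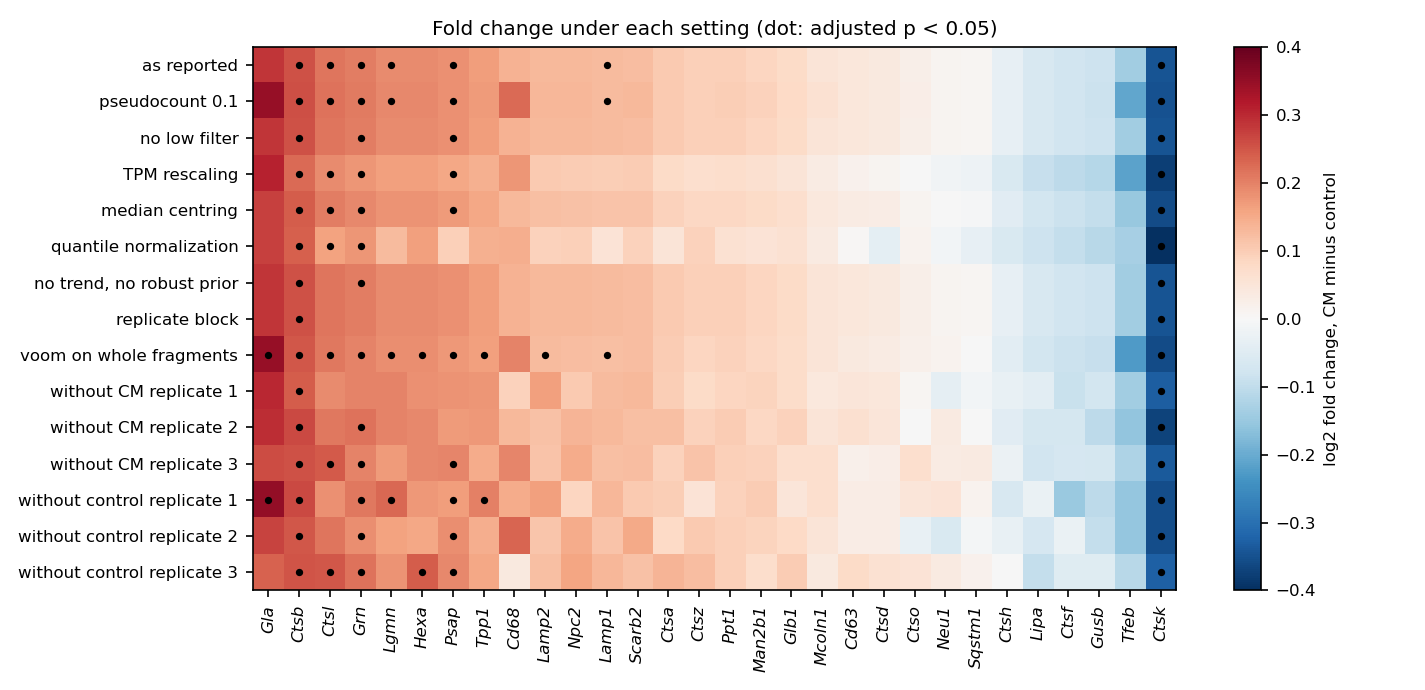
Log2 fold change (colour, CM minus control) of the 30 tested genes, ordered by the reported value, under each processing setting (top line as reported), with a dot where the adjusted p was below 0.05. Ctsb and Ctsk carry a dot in all lines, whereas Lamp1 carries one in 3 lines. Ctsd, Ctso, Neu1 and Sqstm1, with colours near white, change sign in some settings.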

How the data were processed

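The authors deposited FPKM values for 24413 genes in 6 libraries, with 1 column per library. CASAVA, HISAT2 (version 2.0.5) and mm10 appear in the submitters' processing notes with no role stated. Which counter, annotation, strand setting and filters were used is not given in the sources used here. Per the labels' protocols, libraries were made from poly-A RNA. Values of a gene were whole multiples of 1 fragment's worth, within 0.01 fragment, for all 24413 genes, so whole fragments were recovered and used for depth, floors and the voom alternative. The floor of 3 fragments covers counting error only. The 95% intervals of log2 fold changes come from limma and reflect the spread among the 6 libraries.

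log2(FPKM + 1) of 11678 genes whose mean reached 1 FPKM was fitted with limma 3.58.1 in R 4.3.3 (trend, robust prior, no covariate, two-sided), with Benjamini-Hochberg adjustment over all of them and a threshold of 0.05. On that log2 scale a fold change understates changes of low genes. Exact permutation of 3 against 3 libraries cannot go below p = 0.10 and was not used. The fit was tested on simulated data with known changes. It missed most of the smallest changes put in, so a gene that did not pass may still differ. Libraries of a group were not copies of each other (chi-square per degree of freedom 3.00 to 6.52). Coordinates and exons came from GENCODE M21 (mm10), in which exons of 11 of the 31 genes overlap another gene; promoter letters came from RefSeq (GRCm38). Tables were read with Python 3.11.15.

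The members and lists were chosen with earlier results of these data known. All 31 genes are named; of each list, genes that passed are named, at most 4 in a direction, and the most abundant one where fewer than 2 passed. The values of 1 listed gene that passed are not reported here. The 14 alternatives were another pseudocount, no low filter, 3 scalings, another variance prior, the replicate number as a block, voom, and leaving out each library.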

Additional observations from a re-analysis of the deposited data

How the results depend on the processing

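Of the 30 tested genes, 26 kept their sign in all 14 alternatives, 2 (Ctsb and Ctsk) passed in all of them, and 19 passed in none, while Tpp1, Gla, Hexa and Lamp2 passed in 1 or 2 although they did not as reported. The gene that was lower was Ctsk in each alternative (1 gene). The 6 higher became 3 without a low filter, 3 with quantile normalization, 2 without trend and robust prior, 10 with voom, and 1 to 6 when 1 library was left out. The 472 higher and 291 lower of all genes tested became 265 to 426 and 129 to 252 when 1 library was left out, and the lower count was 165 without a low filter and 473 with voom. Of all genes that passed, 61.9% were higher as reported and 50.9% with TPM rescaling, where 4 of the 30 were higher. Other hydrolases (4 passing) became 1 with TPM rescaling, 0 without a low filter, 1 with quantile normalization, 1 without trend and robust prior, and 0 to 2 when 1 library was left out. Membrane and pump genes (2) became 1 without a low filter or without trend and robust prior, 4 with voom, and 0 to 3. Delivery genes (1) became 0 with TPM rescaling, median centring, quantile normalization, no low filter, or no trend, and 0 to 1. Autophagy genes (0) became 2 with TPM rescaling, 1 with median centring and 2 with quantile normalization. Inhibitors (2) became 1 without trend and robust prior, and 1 to 3.

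Some values near 0 changed sign. Ctsd was -0.038 with quantile normalization. Ctso was -0.0018 with TPM rescaling and -0.031 to 0.066 when 1 library was left out. Neu1 was -0.015, -0.0012 and -0.011 with TPM rescaling, median centring and quantile normalization, and -0.061 to 0.055 when 1 library was left out. Sqstm1 was -0.021, -0.0041 and -0.033 under the same 3 scalings, -7.1e-04 with voom, and -0.0098 to 0.034 when 1 library was left out. The cause of these moves was not tested. Leaving out a library also lowered the number of libraries, and dropping the low filter raised the number of genes tested.

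With the replicate block the members had 1 higher and 1 lower, and all genes 259 higher and 131 lower, with 0 hydrolases, 0 membrane and pump genes and 0 delivery genes passing. Same-numbered libraries shared only a number: their deviations from the group means had correlations of -0.095, -0.0080 and -0.048, and no library correlated best with its own number.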
